A study of Homo sapiens with 10 samples.

Results

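The genes described here are 10 noncoding small nucleolar RNA (snoRNA) host genes: SNHG1, SNHG5, SNHG6, SNHG7, SNHG8, SNHG12, SNHG15, GAS5, ZFAS1 and DANCR. They were chosen by symbol from the 28380 genes of the count table, and all 10 had enough counts to be tested, with between 43 and 5400 reads per library. RPE-1 cells, a human retinal pigment epithelial line immortalized with telomerase, were exposed for 4 h to the isothiocyanate sulforaphane (SFN, 25 µM) or to its vehicle DMSO. Each treatment had 5 replicates of 50000 cells, all of the same line, and nothing in the labels says whether replicates were separate cultures, so that p-values measure the spread between these samples only. The comparison asks whether 4 h of SFN changed the RNA level of these hosts.

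A noncoding snoRNA host gene is transcribed and spliced like a messenger RNA. Its snoRNAs lie in the introns, from which they are released to guide the chemical modification of ribosomal RNA and other RNAs. Box C/D snoRNAs (gene names SNORD) guide methylation of the ribose, and box H/ACA snoRNAs (SNORA) guide the conversion of uridine to pseudouridine. The spliced exons that remain carry only short open reading frames. When ribosomes translate them, the RNA is a substrate of nonsense-mediated decay (NMD), the pathway that removes RNAs whose stop codon lies upstream of a splice junction, so that spliced host RNA is known to build up when translation or the NMD helicase UPF1 is blocked. Many hosts also begin with a run of pyrimidines (C and T), the 5′ terminal oligopyrimidine (TOP) start known from ribosomal protein genes.

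All 10 hosts are annotated in GENCODE 44 (GRCh38) as long noncoding RNAs. SNHG12 (chr1:28578538-28583132, minus strand) holds snoRNAs of both classes. The hosts of H/ACA snoRNAs are SNHG7 (chr9:136721366-136728184, minus strand), SNHG8 (chr4:118278703-118285316, plus strand), SNHG15 (chr7:44983019-44986961, minus strand) and DANCR (chr4:52712325-52723623, plus strand). The hosts of box C/D snoRNAs are GAS5 (chr1:173858559-173868882, minus strand), SNHG1 (chr11:62851978-62855953, minus strand), SNHG5 (chr6:85650491-85678932, minus strand), SNHG6 (ENSG00000245910) and ZFAS1 (chr20:49278178-49299600, plus strand). The search of this annotation found 0 snoRNAs inside GAS5, so its class was not read from it. Of 24 snoRNA annotations inside the other hosts, 23 lie in introns of the canonical transcript. Only 4 have a row in the count table, SNORD99, SNORD12C, SNORD12B and SNORA26, with 8 to 66 reads over all 10 libraries. The counts therefore describe the host RNA and not the snoRNAs.

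The RefSeq promoter table (GRCh38.p14, 250 bases before and 50 after each start) matched 8 of the 10 hosts. Promoters of 4 of them are shown: SNHG12, which had the largest decrease, DANCR, which had the largest positive log2 fold change, and SNHG1 and ZFAS1, whose windows also hold the start of a protein-coding gene on the opposite strand. Capitals mark the longest run of pyrimidines that begins within 10 bases of the start and, in SNHG1, a match to TATAAA on the opposite strand. The sequences are from chr1:28581824-28582123 (minus strand), chr4:52712144-52712443 (plus strand), chr11:62855836-62856135 (minus strand) and chr20:49278392-49278691 (plus strand).
SNHG12: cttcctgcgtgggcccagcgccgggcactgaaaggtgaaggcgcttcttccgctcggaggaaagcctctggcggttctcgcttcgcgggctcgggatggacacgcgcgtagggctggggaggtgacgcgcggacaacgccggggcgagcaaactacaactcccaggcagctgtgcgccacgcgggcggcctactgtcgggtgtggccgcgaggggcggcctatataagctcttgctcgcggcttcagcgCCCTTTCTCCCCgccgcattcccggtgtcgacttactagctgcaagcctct
DANCR: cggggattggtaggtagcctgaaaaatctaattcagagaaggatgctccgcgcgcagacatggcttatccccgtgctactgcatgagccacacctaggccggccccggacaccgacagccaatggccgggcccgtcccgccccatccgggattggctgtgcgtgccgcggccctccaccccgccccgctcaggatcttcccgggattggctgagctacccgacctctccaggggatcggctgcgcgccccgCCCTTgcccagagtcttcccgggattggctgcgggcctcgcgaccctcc
SNHG1: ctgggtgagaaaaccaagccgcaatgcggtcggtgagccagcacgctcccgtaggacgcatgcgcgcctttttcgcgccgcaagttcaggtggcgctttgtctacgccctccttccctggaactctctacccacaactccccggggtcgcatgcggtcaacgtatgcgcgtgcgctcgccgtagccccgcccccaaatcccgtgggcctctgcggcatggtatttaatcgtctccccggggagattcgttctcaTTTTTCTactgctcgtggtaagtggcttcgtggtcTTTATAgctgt
ZFAS1: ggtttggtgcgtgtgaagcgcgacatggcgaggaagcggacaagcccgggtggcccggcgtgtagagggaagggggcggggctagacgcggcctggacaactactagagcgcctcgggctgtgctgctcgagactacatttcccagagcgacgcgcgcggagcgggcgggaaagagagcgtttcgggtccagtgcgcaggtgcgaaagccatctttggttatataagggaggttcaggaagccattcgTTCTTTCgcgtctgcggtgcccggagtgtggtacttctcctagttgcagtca
The run in SNHG12 is 12 bases long and begins 1 base before the RefSeq start. Among 27305 RefSeq promoters, 2.62% had a run at least that long within 10 bases of the start. The canonical GENCODE transcript of SNHG12 starts elsewhere, at chr1:28582986, upstream of the window shown, and opens with 5 pyrimidines. The runs of SNHG1, ZFAS1 and SNHG7 are 7 bases long, a length that 17.5% of promoters reached, those of SNHG8 and SNHG5 are 6 bases long (26.8% of promoters), and that of DANCR is 5 bases long (43.1%). For GAS5, the RefSeq start lies 1056 bases upstream of the start of the canonical GENCODE transcript, and only the latter opens with 6 pyrimidines, as its first 40 bases show (capitals mark the run).
GAS5: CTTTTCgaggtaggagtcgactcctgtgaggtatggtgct
Motifs were searched on both strands of the 8 windows. The NRF2-type antioxidant response element TGACNNNGC was found in none of them (13.6% of all promoters hold it), nor were the C/EBP-ATF letters TGATGCAA (0.923%) or TGATGNAAT (1.02%). The E-box CACGTG, which reads alike on both strands, was found in SNHG7 only (7.43% of promoters), the ETS letters TTCCGG in SNHG8 only (17.6%), the heat shock element in GAS5 only (0.487%), and TATAAA in SNHG7 and SNHG1 (12%). A match of letters is a description and not evidence of binding, and a missing match says only that those letters are not in this window.

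The authors aligned and counted the reads and deposited raw counts for each gene. Depth was similar across libraries, with totals of 15689294 to 20666692 counts in the DMSO libraries and 12375860 to 17308706 in the SFN libraries. Levels are given as CPM, the counts after scaling by the TMM method to a common library size. Fold changes and p-values come from the quasi-likelihood test of edgeR, with p-values adjusted by Benjamini-Hochberg over all 13378 genes tested. Of the retinal pigment epithelium markers, BEST1 (5.42 to 107.3 CPM), MITF, OTX2, KRT8 and KRT18 were detected in every library, whereas RPE65, RLBP1, TYRP1 and SERPINF1 had at most 4 reads in any library. Of 7 markers tested, MITF (log2 fold change -1.12, adjusted p = 5.273e-05 by edgeR) and OTX2 (-0.64, adjusted p = 0.00288) were lower in SFN, where 13.9% of all genes tested were lower. Without DMSO replicate 1, 2 were lower and 2 higher (23.5% and 22.5% of all genes). The sum of the list, to which the keratins KRT8 and KRT18 contributed most, ran from 718 to 935 CPM in DMSO and from 718 to 1079 CPM in SFN, and summed markers of other cell types did not exceed 2.87 CPM.

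A single DMSO library stood apart, and not only in these genes. DMSO replicate 1 was the highest DMSO library for 10 of 10 hosts, against 40.5% of all genes tested. It was the lowest DMSO library for 5976 of all 13378 genes tested. Among related genes, it was the highest for 13 of 16 other noncoding snoRNA hosts and 31 of 36 protein-coding ones. The median host was 0.97 log2 units above its mean in the other DMSO libraries. That median was 1.21 for the protein-coding hosts and -0.05 for all genes. The excess of DMSO replicate 1 was largest for SNHG8 (4.74-fold over the mean of the other DMSO libraries) and SNHG6 (3.97-fold). It was smallest for ZFAS1 (1.27-fold) and SNHG1 (1.19-fold). SFN replicate 2 was the highest SFN library for 9 hosts, all except SNHG12, against 34.8% of all genes. Each host, each ratio of a host to its partner and the calls of each gene list are therefore given with all 10 libraries and without DMSO replicate 1, and the part of this library's state in the results was not tested.

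**Figure D1:**
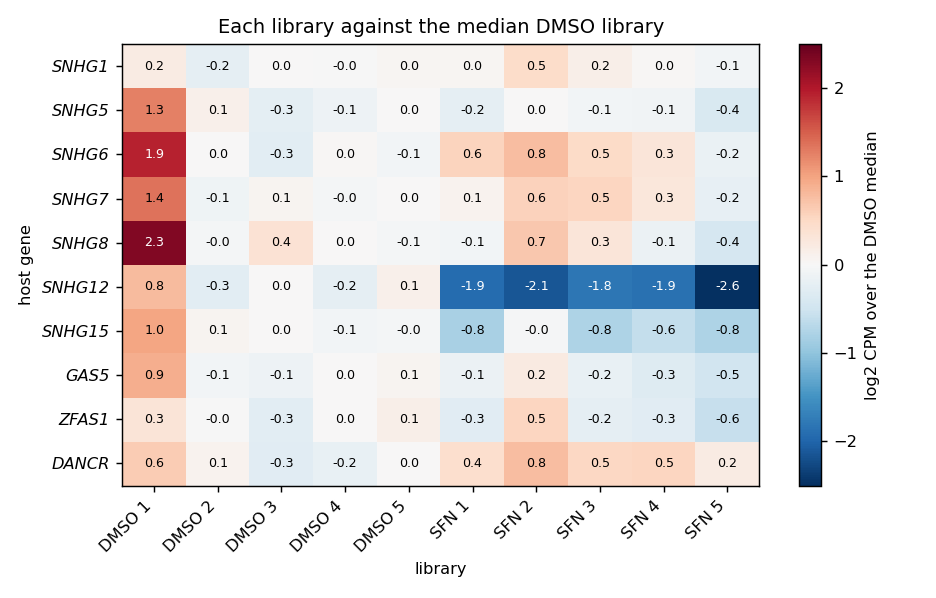
Level of each host in each library, as log2 CPM over the median DMSO library of that host (rows, hosts; columns, libraries; red, higher; blue, lower). The DMSO 1 column is above 0 in all 10 rows, and the SNHG12 row is between -1.8 and -2.6 in the SFN libraries.

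The hosts did not move together. SNHG12 fell 4.50-fold, SNHG15 fell to a lesser extent, and the other 8 hosts did not pass the test with all libraries, among them GAS5, SNHG1 and ZFAS1. Of the 10 hosts, 2 were significantly lower in SFN, where 13.9% of all genes tested were lower, and 0 were higher, where 9.07% of all genes were higher. At an unadjusted p under 0.05, edgeR gave 1 higher and 2 lower hosts, beside 1948 higher and 2676 lower of all 13378 genes. DESeq2 also called 0 hosts higher, and limma-voom on quantile-normalized values called 1, DANCR. Only SNHG12 was also past a log2 fold change of -1 (5.76% of all genes), and 0 hosts were past 1 (2.94%). The groups did not overlap in 1 host, SNHG12 (19.9% of all genes), which had all SFN libraries below all DMSO libraries (11.1% of all genes), and 0 hosts had all SFN libraries above (8.78%). The log2 fold change was negative for 8 hosts and positive for 2, and its median was -0.28, beside -0.03 for all genes. Without DMSO replicate 1, the median was -0.03 and 4 hosts passed the test: SNHG12 and SNHG15 were lower (23.5% of all genes were lower) and SNHG6 and DANCR were higher (22.5%). In RNA from bulk cultures, a smaller share of cells expressing a host and less of its RNA per expressing cell cannot be told apart.

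**Figure D2:**
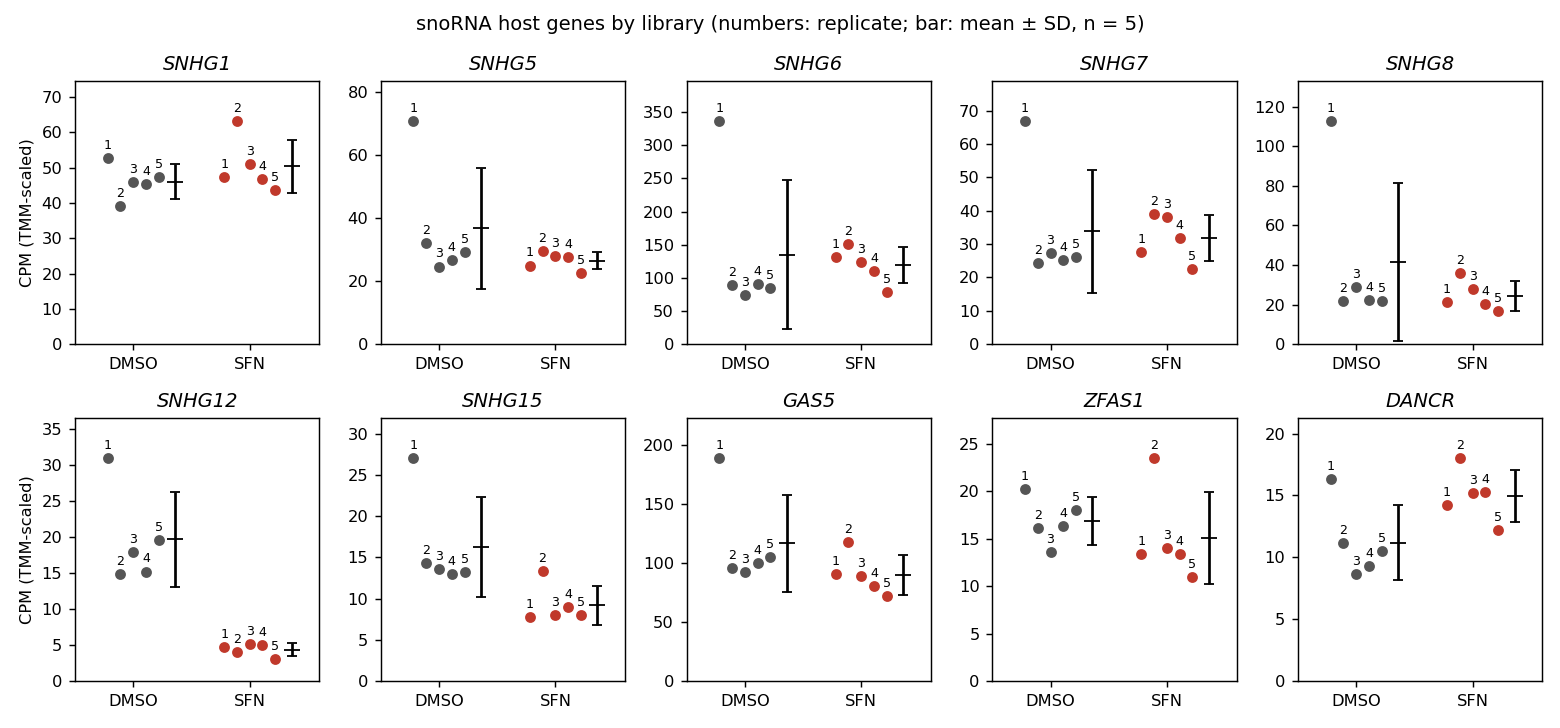
Level of each host by library, in TMM-scaled CPM with axes from 0 (grey, DMSO; red, SFN; numbers, replicates; bars, mean ± SD, n = 5). The groups are separate only in SNHG12, where SFN libraries lie between 3.04 and 5.06 CPM and DMSO libraries between 14.8 and 30.9 CPM.

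SNHG12, the host of SNORD99 and of the H/ACA snoRNAs SNORA16A, SNORA44 and SNORA61, had the largest change. Its level in DMSO replicates 1 to 5 was 30.9, 14.8, 17.8, 15.2 and 19.6 CPM, and in SFN replicates 1 to 5 it was 4.71, 4.06, 5.06, 4.93 and 3.04 CPM. Every SFN library was below every DMSO library, of which DMSO replicate 1 was the highest. The means were 19.7 ± 6.60 CPM in DMSO and 4.36 ± 0.834 CPM in SFN (SD, n = 5), which is 4.50-fold lower (log2 fold change -2.17, SE 0.23, adjusted p = 4.8e-05 by edgeR). Leaving out DMSO replicate 1 gave a log2 fold change of -1.95 (adjusted p = 4.052e-07 by the same edgeR test). The decrease was significant in all 20 alternative analyses, with log2 fold changes from -2.26 to -1.78. The neighbouring gene TRNAU1AP, which encodes a factor associated with selenocysteine transfer RNA and overlaps SNHG12 by 8 bases on the opposite strand, had 20.1 ± 8.99 CPM in DMSO and 24.0 ± 4.31 CPM in SFN (SD, n = 5). Its log2 fold change of 0.26 did not pass the test (adjusted p = 0.504 by edgeR).

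SNHG15, the host of SNORA9, also fell. It had 27.1, 14.3, 13.6, 13.01 and 13.3 CPM in DMSO replicates 1 to 5, and 7.75, 13.4, 7.97, 8.97 and 7.98 CPM in SFN replicates 1 to 5. SFN replicates 1, 3, 4 and 5 were below every DMSO library, and only SFN replicate 2 reached into the DMSO range. The mean went from 16.3 ± 6.07 to 9.21 ± 2.38 CPM (SD, n = 5), a log2 fold change of -0.82 (SE 0.24, adjusted p = 0.0268 by edgeR). It was -0.57 without DMSO replicate 1 (adjusted p = 0.00674 by edgeR). The call was kept in 15 of 20 alternatives and lost when SFN replicate 1, 3, 4 or 5 was left out (adjusted p from 0.0565 to 0.0710 by edgeR) and with limma-voom on quantile-normalized values (adjusted p = 0.0752).

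DANCR, named for its part in keeping epidermal progenitors undifferentiated, carries SNORA26 and had the largest positive log2 fold change. In DMSO replicates 1 to 5 it had 16.3, 11.2, 8.61, 9.28 and 10.5 CPM, and in SFN replicates 1 to 5 it had 14.2, 18.0, 15.2, 15.2 and 12.2 CPM. DMSO replicate 1 lay within the SFN range, and the other DMSO libraries were below every SFN library. Its log2 fold change was 0.42 (SE 0.18), with an unadjusted p of 0.0377 and an adjusted p of 0.118 by edgeR. DANCR was 1.502-fold higher in SFN without DMSO replicate 1 (log2 fold change 0.59, adjusted p = 0.00217 by edgeR).

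SNHG7 and SNHG8, the remaining hosts of H/ACA snoRNAs, were dominated by DMSO replicate 1. For SNHG7, the host of SNORA17A and SNORA17B, the DMSO libraries had 66.8, 24.2, 27.2, 25.2 and 26.1 CPM and the SFN libraries 27.7, 38.9, 38.05, 31.9 and 22.4 CPM. Apart from DMSO replicate 1, SFN replicates 1 to 4 were above the DMSO libraries and SFN replicate 5 was below them. SNHG7 had a log2 fold change of -0.09 (SE 0.29, adjusted p = 0.861 by edgeR) with all libraries and 0.30 (adjusted p = 0.0988) without DMSO replicate 1. For SNHG8, the host of SNORA24, the DMSO libraries had 112.7, 21.8, 29.1, 22.5 and 21.7 CPM and the SFN libraries 21.5, 36.1, 27.8, 20.4 and 16.9 CPM. The high value of DMSO replicate 1 set its SD of 39.9 CPM around a mean of 41.6 CPM. Its log2 fold change was -0.76 (SE 0.47, adjusted p = 0.282 by edgeR) with all libraries and 0.03 (adjusted p = 0.899) without DMSO replicate 1. SNHG8 overlaps PRSS12, a secreted serine protease gene on the opposite strand, by 5279 bases, and the use of strand in counting is not given in the sources used here, so that reads from the overlap cannot be told apart. PRSS12 had 66.2 ± 12.2 CPM in DMSO and 59.9 ± 8.01 CPM in SFN (SD, n = 5).

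GAS5, named for its rise in growth-arrested cells, had a lower mean in SFN that did not pass the test. Its DMSO libraries had 189, 96.2, 92.4, 100.4 and 104.9 CPM, and its SFN libraries had 91.0, 117.6, 88.8, 80.7 and 72.2 CPM. SFN replicates 1, 3, 4 and 5 were below every DMSO library, while SFN replicate 2 was above all DMSO libraries other than replicate 1. The means were 116.6 ± 40.9 CPM in DMSO and 90.05 ± 17.1 CPM in SFN (SD, n = 5), a log2 fold change of -0.37 (SE 0.21, adjusted p = 0.237 by edgeR). It was -0.14 (adjusted p = 0.363 by edgeR) without DMSO replicate 1. With DMSO replicate 1 and SFN replicate 2 both left out, a choice made after the data were seen, the log2 fold change of GAS5 was -0.24 (adjusted p = 0.0291 by edgeR). GAS5 passed in 2 of 20 alternatives, this fit among them.

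SNHG1, the host of SNORD22, SNORD25 to SNORD28 and SNORD30, had the smallest standard error of the 10 hosts. The DMSO libraries had 52.6, 39.1, 45.9, 45.3 and 47.4 CPM and the SFN libraries 47.3, 63.1, 50.9, 46.7 and 43.7 CPM. The groups overlapped over most of their range. Its change was 0.13 log2 units (SE 0.13, adjusted p = 0.518 by edgeR), and it was not significant in any of 20 alternatives (0.17, adjusted p = 0.210, without DMSO replicate 1). ZFAS1, the host of the SNORD12 snoRNAs, had 20.3, 16.1, 13.6, 16.3 and 18.1 CPM in DMSO and 13.4, 23.6, 14.1, 13.4 and 11.02 CPM in SFN. SFN replicate 2 was the highest of all 10 libraries, and SFN replicates 1, 4 and 5 were the lowest 3. ZFAS1 had a log2 fold change of -0.17 (SE 0.20, adjusted p = 0.606 by edgeR), which was -0.10 (adjusted p = 0.667) without DMSO replicate 1 and -0.38 (adjusted p = 0.0834) without SFN replicate 2. With both of these libraries left out it was -0.31 (adjusted p = 0.0413 by edgeR).

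SNHG5 and SNHG6 were again set by DMSO replicate 1. SNHG5, the host of SNORD50B, had 70.6, 32.0, 24.6, 26.8 and 29.3 CPM in DMSO and 24.9, 29.4, 27.8, 27.7 and 22.6 CPM in SFN. Apart from that library its groups overlapped over most of their range, and the log2 fold change went from -0.47 (SE 0.27, adjusted p = 0.241 by edgeR) to -0.10 (adjusted p = 0.485). SNHG6, the host of SNORD87, had 336, 89.0, 74.5, 90.8 and 84.4 CPM in DMSO and 131.6, 151, 123.9, 110.2 and 79.2 CPM in SFN. SFN replicates 1 to 4 were above DMSO replicates 2 to 5 and below DMSO replicate 1. The sign of its log2 fold change therefore depended on that library, at -0.18 (SE 0.40, adjusted p = 0.800 by edgeR) with it and 0.49 (adjusted p = 0.0142) without it.

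**Figure D3:**
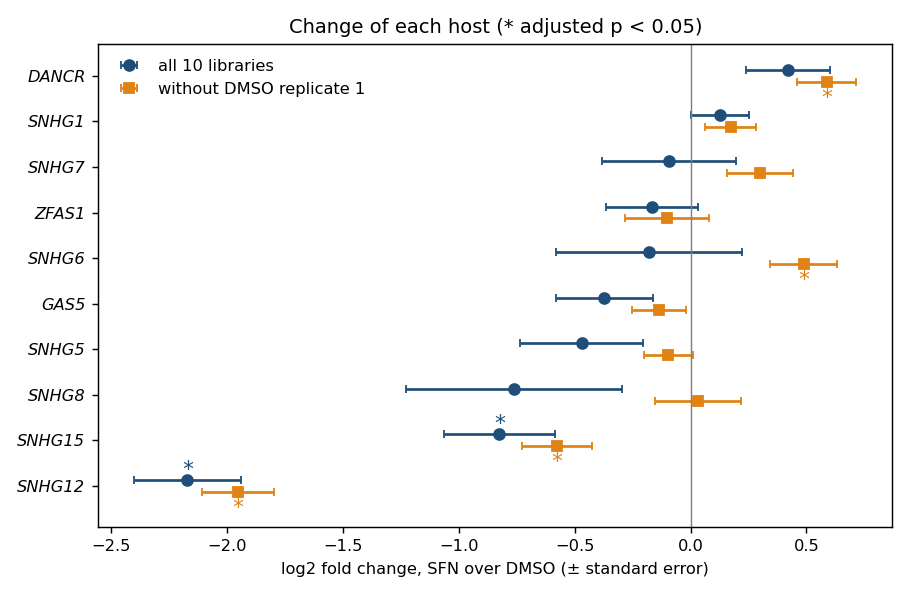
The log2 fold change of each host, SFN over DMSO, with its standard error, from all 10 libraries (blue circles) and without DMSO replicate 1 (orange squares). Asterisks mark adjusted p under 0.05 by edgeR, and the values for SNHG12 are -2.17 and -1.95.

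Across the 10 libraries the hosts varied together in part. The median Pearson correlation of log2 CPM over the 45 pairs of hosts was 0.617, with a range of -0.457 to 0.940, and without DMSO replicate 1 it was 0.418 over 9 libraries. Pairs share libraries, scaling and the DMSO replicate 1 excess, so these values are a description. The gene outside the list whose log2 CPM was most like the mean of the hosts, of 10029 genes searched, was SNHG19, also a snoRNA host, with r = 0.988 over 10 libraries. CHD4, FST, PGP and TLX2 followed, with r from 0.985 to 0.988. All 5 of these genes were 2.03-fold to 5.96-fold higher in DMSO replicate 1 than in the other DMSO libraries.

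Several hosts share a start region with a protein-coding gene, which gives a comparison within each library. For 3 hosts a gene on the opposite strand starts within 2000 bases and passed the filter on low counts: SLC3A2 beside SNHG1, ZNFX1 beside ZFAS1 and ZBTB37 beside GAS5. The measure was the log2 ratio of host CPM to partner CPM, each with 0.5 added, tested by an exact two-sided permutation test over the 10 libraries and adjusted over the 3 pairs by the Benjamini-Hochberg method.

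SLC3A2 encodes the heavy chain shared by several amino acid transporters, and its start lies 119 bases upstream of the RefSeq start of SNHG1, inside the window printed above. SLC3A2 had 174.9, 139, 125, 140.1 and 117.6 CPM in DMSO and 647, 692, 674, 626 and 508 CPM in SFN, where all SFN libraries were above all DMSO libraries. Its mean rose 4.51-fold, from 139 ± 22.02 to 629 ± 72.2 CPM (SD, n = 5; adjusted p = 1.224e-06 by edgeR), while that of SNHG1 was 46.1 ± 4.84 CPM in DMSO and 50.4 ± 7.60 CPM in SFN. The log2 ratio of SNHG1 to SLC3A2 lay between -1.82 and -1.30 in DMSO and between -3.76 and -3.44 in SFN. The mean ratio fell by 2.05 log2 units (exact permutation p = 0.00794, the smallest that 5 against 5 libraries allow, adjusted p = 0.0238). Without DMSO replicate 1 the difference was -2.09 (exact permutation p = 0.00794, again the smallest the test allows).

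ZNFX1, an antiviral RNA helicase, starts 216 bases upstream of the RefSeq start of ZFAS1, and the annotated genes overlap by 249 bases. It had 50.3, 85.8, 86.0, 81.4 and 82.7 CPM in DMSO and 45.3, 37.2, 42.7, 45.3 and 59.0 CPM in SFN. DMSO replicate 1 was the lowest DMSO library for ZNFX1, where it was the highest for ZFAS1. ZNFX1 fell by 0.75 log2 units (SE 0.17, adjusted p = 0.00724 by edgeR). The log2 ratio of ZFAS1 to ZNFX1 was -2.15 ± 0.51 in DMSO and -1.61 ± 0.62 in SFN, a difference of 0.54 that did not pass the test (exact permutation p = 0.159, adjusted p = 0.238). It was 0.75 without DMSO replicate 1 (unadjusted exact permutation p = 0.0317).

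ZBTB37, a zinc finger protein gene, overlaps GAS5 by 801 bases. It had 6.10 CPM in DMSO replicate 1, 10.8 to 15.2 CPM in the other DMSO libraries and 5.00 to 14.0 CPM in SFN. The mean log2 ratio of GAS5 to ZBTB37 was 3.28 ± 0.88 in DMSO and 3.24 ± 0.77 in SFN (SD, n = 5; exact permutation p = 0.929, adjusted p = 0.929). Without DMSO replicate 1 the ratio differed by 0.35 (unadjusted exact permutation p = 0.492). DMSO replicate 1 and SFN replicate 2 had the 2 highest ratios, 4.84 and 4.42.

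**Figure D4:**
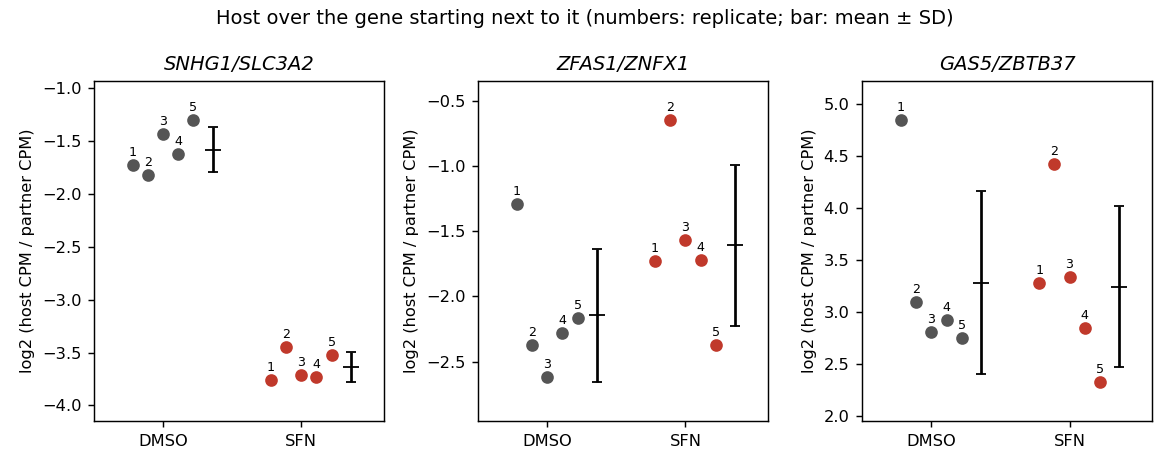
The log2 ratio of host CPM to the CPM of the gene that starts next to it, by library (grey, DMSO; red, SFN; numbers, replicates; bars, mean ± SD, n = 5). For SNHG1/SLC3A2 all SFN libraries lie at or below -3.44 and all DMSO libraries at or above -1.82, while the groups overlap in the other pairs.

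Other overlaps also bear on the counts. On the opposite strand, MCMDC2 overlaps SNHG6 by 1488 bases. Within SNHG5 and on its strand lies the processed pseudogene PKMP3, which had 0.033 CPM in DMSO and 1.53 CPM in SFN, and how reads were divided between PKMP3 and SNHG5 is not given in the sources used here.

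The other gene groups around these hosts were read from the same fit. For every list below, the counts stand beside 9.07% of all genes tested higher and 13.9% lower in SFN. Without DMSO replicate 1 these shares were 22.5% and 23.5%. Of 22 further noncoding snoRNA hosts, 16 could be tested, and 3 were lower and 0 higher in SFN (5 lower and 0 higher at an unadjusted p under 0.05 by edgeR, and 0 higher by DESeq2 and limma-voom), with a median log2 fold change of -0.30. Without DMSO replicate 1, 3 were lower and 1 was higher, SNHG29 (0.49, adjusted p = 0.0158 by edgeR), named here after its values were seen, and 2 were lower when DMSO replicate 2, 3 or 5 or SFN replicate 4 or 5 was left out. With all libraries, the 3 lower hosts were SNHG4 (-1.67, adjusted p = 0.000141 by edgeR), SNHG3 (-0.85, adjusted p = 0.000294) and SNHG20 (-0.74, adjusted p = 0.0264). SNHG4 went from 11.3 ± 3.47 to 3.53 ± 0.548 CPM and SNHG3 from 30.7 ± 4.25 to 17.0 ± 0.864 CPM (SD, n = 5), each with all SFN libraries below all DMSO libraries, as in SNHG12.

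Protein-coding genes that carry snoRNAs in their introns had a positive median. Of 36 such genes, 2 were higher and 2 lower, and the median log2 fold change was 0.20. HSPA8, the constitutive HSC70 chaperone, rose (0.72, adjusted p = 0.000623 by edgeR), as did TPT1, the translationally controlled tumor protein (0.60, adjusted p = 0.0457), while NOP56, a core protein of box C/D particles, fell (-0.78, adjusted p = 0.0293). When any replicate other than DMSO replicate 1 and SFN replicate 5 was left out, 1 was higher, and 1 was lower when SFN replicate 1, 3, 4 or 5 was left out. Without DMSO replicate 1, 29 of the 36 were higher, 3 were lower and the median was 0.58. DMSO replicate 1 was the highest DMSO library for 31 of them.

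Among 20 genes of NMD and the exon junction complex, 0 were higher and 1 was lower (3 higher and 1 lower at an unadjusted p under 0.05 by edgeR), with a median of -0.08. DESeq2 called 3 of them higher and limma-voom 0. The lower gene was CASC3, a component of the exon junction complex (-0.80, adjusted p = 0.0269 by edgeR). UPF1, the central helicase of NMD, had 104.2 ± 25.7 CPM in DMSO and 126 ± 10.5 CPM in SFN (SD, n = 5; log2 fold change 0.27, adjusted p = 0.294 by edgeR). Without DMSO replicate 1, 4 genes of the list were higher and 2 were lower, among them CASC3 (-0.98, adjusted p = 7.355e-05 by edgeR). The call of CASC3 was lost when any of DMSO replicates 2 to 5 or SFN replicates 1 to 4 was left out, fits that all keep DMSO replicate 1. Of 21 genes for decapping, exonuclease and exosome proteins, 3 were higher and 2 lower, among them the decapping activator DCP1A (0.69, adjusted p = 0.0164 by edgeR), LSM1 of the cytoplasmic LSM ring (0.51, adjusted p = 0.0282) and the exosome subunit EXOSC2 (-0.59, adjusted p = 0.00121). Leaving out DMSO replicate 1 gave 5 higher and 5 lower of the 21, near the shares of all genes (22.5% and 23.5%). Leaving out any of DMSO replicates 2 to 5 or SFN replicates 1 to 3 gave 1 lower.

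Protein-coding genes with transcripts known as NMD targets were listed with earlier results of these data known. Of 16 such genes, 10 were higher and 1 was lower, where 9.07% of all genes were higher and 13.9% lower. Their median log2 fold change was 0.87. Without DMSO replicate 1, 13 were higher and 1 was lower (22.5% and 23.5% of all genes), with a median of 1.14. Those that rose most were CHAC1, a glutathione-degrading enzyme (7.02, adjusted p = 2.51e-08 by edgeR), ASNS, asparagine synthetase (3.79, adjusted p = 1.189e-06), and ATF3, a stress-induced transcription factor (3.04, adjusted p = 2.48e-06). ATF4, the transcription factor of the integrated stress response, rose by 1.502 log2 units (adjusted p = 0.00153 by edgeR). CHAC1, ASNS, ATF3, DDIT3, TRIB3 and SLC7A11 are also known targets of ATF4, and counts cannot tell their transcription and decay apart. SESN1 was the lower gene (-0.75, adjusted p = 0.00522 by edgeR). The 5 genes that did not pass were UPP1 (0.34), TBL2 (0.22), GADD45B (0.03), BAG1 (0.03) and NAT9 (-0.09).

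Of 19 snoRNA particle proteins and their assembly factors, 3 were lower and 0 higher (7 lower and 0 higher at an unadjusted p under 0.05 by edgeR, and 0 higher by DESeq2 and limma-voom). Leaving out DMSO replicate 1 gave 6 lower and 3 higher, and leaving out SFN replicate 3 or 4 gave 1 lower. Besides NOP56, these were the cap methylase TGS1 (-0.76, adjusted p = 0.000706 by edgeR) and the assembly factor NUFIP1 (-0.64, adjusted p = 0.0216). Of 15 long noncoding RNAs that are not snoRNA hosts, 1 was higher and 5 were lower (2 higher and 6 lower without DMSO replicate 1). MIR17HG, the host of the miR-17-92 cluster, fell by 3.25 log2 units (adjusted p = 0.000349 by edgeR), and NEAT1, the scaffold of paraspeckles, fell by 1.85 (adjusted p = 5.738e-05), whereas MIR22HG, the host of miR-22, rose by 1.59 (adjusted p = 0.000168). Among 13 genes of mTORC1 output on TOP messages, 1 was higher, AKT1S1, which encodes the mTORC1 inhibitor PRAS40 (1.06, adjusted p = 0.000111 by edgeR), and without DMSO replicate 1, 5 were higher and 3 lower.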

How the data were processed

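Total RNA from 10 RPE-1 samples, 5 per treatment, was sequenced, and groups were taken from the treatment labels. The methods name Lexogen QuantSeq libraries, which read transcripts near their 3′ ends, aligned with the Bluebee pipeline, whereas the submitters' processing notes name FastQC, STAR, featureCounts and edgeR on GRCh38. Versions, strand setting and annotation release are not given in the sources used here. The values the authors deposited are raw, unnormalized counts for each Ensembl gene and sample.

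The 10 genes and all gene lists were chosen with earlier results of these data known. Genes were filtered with filterByExpr (13378 of 28380 kept), scaled by TMM and compared with edgeR's quasi-likelihood test (edgeR 4.0.16, R 4.3.3) without covariates, with Benjamini-Hochberg adjustment over all genes tested and a threshold of 0.05. Standard errors were derived from the fold change and its F statistic. Host to partner ratios were compared by an exact permutation test. The named genes were the 10 hosts, the 3 called genes with the largest change in each other list, ATF4, UPF1, SLC3A2, every partner with a start within 2000 bases, and the 5 genes most correlated with the hosts among those with a mean of at least 5 CPM. TRNAU1AP, PRSS12, MCMDC2 and PKMP3 were named because they overlap a host. In the list of NMD targets, the lower gene and those that did not pass were named after their values were seen.

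Replicates were compared before averaging, and chi-square per degree of freedom ranged from 3.50 to 243 over 20 pairs. No pair differed by less than sampling noise. The pairs that include DMSO replicate 1 had 232 to 243. The other DMSO pairs had 3.50 to 13.03, and the SFN pairs had 3.88 to 67.7. Over the whole count table, DMSO replicate 1 was thus far from the other DMSO libraries. With totals of 12375860 to 20666692 counts, hosts had 43 to 5400 reads per library. In simulated counts with the library sizes of this comparison (13257 genes, 200 changed) the test recovered 100% of the changed genes, and 3.38% of its calls were false. The simulation gave all genes the same spread between replicates and held no library that stood apart. It changed only genes above a minimum mean count, by at least 1 log2 unit. It therefore does not measure recovery of smaller changes, or with a library such as DMSO replicate 1. Alternatives covered other scalings, DESeq2 1.42.0, limma-voom (limma 3.58.1), low-count filters, a replicate block, a fold change limit and leaving out each replicate. Sample quality weights and leaving out DMSO replicate 1 together with SFN replicate 2 were added after the data were seen. The authors' repeated-measures model was not run. Positions and transcript starts are from GENCODE 44 and promoters from RefSeq (GRCh38.p14).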

Additional observations from a re-analysis of the deposited data

Results flagged for a closer look

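In 10 of 32 sets of 5 libraries examined (the hosts, their partners and the ratios, in each treatment), the highest or lowest library lay far from the other 4, its gap to the nearest divided by the range being above 0.71, Dixon's critical value for 5 samples. Chance flags about 1 in 20 such sets, here 1.6. Of the 10, 8 were DMSO replicate 1. It was the high library for SNHG6 (gap over range 0.938), SNHG7 (0.929), SNHG8 (0.919), SNHG15 (0.905), GAS5 (0.870) and SNHG5 (0.839), and for the ratio of GAS5 to ZBTB37 (0.833), and it was the low library for ZNFX1 (0.873). SFN replicate 2 was the high library for SNHG15 (0.782) and ZFAS1 (0.756). SNHG12 and SNHG1 had no such library in either treatment.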

How the results depend on the processing

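The decrease of SNHG12 kept its direction and significance in 20 of 20 alternatives, and that of SNHG15 in 15 of 20, its direction in all 20. The count of hosts called higher, 0 with all libraries, was 1 with quantile-normalized limma-voom, 0 to 2 when single replicates were left out (2 without DMSO replicate 1), 2 without DMSO replicate 1 and SFN replicate 2, and 3 with sample quality weights (DMSO replicate 1 had a weight of 0.0568). The count called lower, 2, was 1 with quantile-normalized limma-voom, 1 with a fold change limit of 2, 1 to 2 when single replicates were left out (1 without SFN replicate 1, 3, 4 or 5) and 4 without DMSO replicate 1 and SFN replicate 2. It was 3 with sample quality weights. Over all genes, 1214 were higher and 1862 lower. The counts were 393 and 770 with the fold change limit, 3106 and 3273 without DMSO replicate 1 and SFN replicate 2, 3874 and 4041 with quality weights, and 906 to 3058 and 1470 to 3193 when single replicates were left out (the highest without DMSO replicate 1). Scaling by library size only moved the share of higher calls from 39.5% to 27.5% and the median log2 fold change of all genes from -0.03 to -0.11.

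The log2 fold change of SNHG6, -0.18, changed sign to 0.047 with quantile-normalized limma-voom, 0.49 without DMSO replicate 1, 0.39 without DMSO replicate 1 and SFN replicate 2, and 0.45 with quality weights. That of SNHG7, -0.09, became 0.045, 0.30, 0.23 and 0.31 under the same settings and ranged from -0.19 to 0.30 when single replicates were left out (0.012 without SFN replicate 5). That of SNHG8, -0.76, ranged from -0.93 to 0.033, the latter without DMSO replicate 1. The SNHG1 to SLC3A2 difference ranged from -2.11 to -1.98 when single replicates were left out. That of ZFAS1 to ZNFX1 ranged from 0.30 to 0.75 (exact permutation p = 0.0317 without DMSO replicate 1), and that of GAS5 to ZBTB37 ranged from -0.34 to 0.35, positive without DMSO replicate 1 (0.35), SFN replicate 4 (0.059) or SFN replicate 5 (0.19). Beyond the libraries left out, the cause of these changes was not tested.

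Pairing by replicate number was checked from deviations from the group means. These correlated at 0.05, -0.33, -0.08, 0.04 and 0.56 for replicates 1 to 5, and 2 of 10 libraries correlated best with their own number. The DMSO mean includes DMSO replicate 1, which shifts the deviations of the other DMSO libraries alike. The check therefore cannot decide whether the libraries were paired. With the replicate block, 0 hosts were higher and 2 lower, and the log2 fold changes of SNHG6 and SNHG7 were 0.082 and 0.014. An exact sign-flip test over the 5 pairs gave p = 0.0625, the smallest it allows, for the SNHG1 to SLC3A2 difference of -2.05. The adjusted p of SNHG8 from DESeq2 was not available. Depth limited SNHG12 most, with 43 to 79 reads in SFN.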
